A study of Homo sapiens with 4 samples.

Results

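Prostaglandin synthesis and breakdown was examined through 10 genes of 61541 in the count table, in RNA from MHCC97H cells, an established human hepatocellular carcinoma (HCC) line. The genes were PLA2G4A, PTGS1, PTGS2, PTGES, PTGES2, HPGD, PTGR1, PTGR2, PTGER2 and PTGER4. PTGS2 was chosen by its counts in this same comparison, where it fell while most other NF-κB targets rose, so its values are given as a description without a test. The remaining genes were taken from the same pathway, with earlier results of these libraries known. Cells labelled shCon (control, 2 libraries) were compared with cells labelled shUBXN1 (UBXN1 knockdown, 2 libraries), and all of them were the same line. By the study's methods the shRNAs were carried in the lentiviral vector pLKO.1. The shRNA in the sequenced cells is not given in the sources used here, and the methods call the control shRFP. UBXN1 is a cofactor of the segregase VCP, and the comparison addresses which transcripts change when it is lowered.

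Prostaglandins are short-lived lipid signals made from arachidonic acid. Phospholipases release the acid from membranes, cyclooxygenases turn it into an unstable endoperoxide, and terminal synthases turn that into prostaglandin E2 (PGE2). PGE2 acts on the cell that makes it and on neighbouring cells through several receptors, of which PTGER2 and PTGER4 raise cAMP. Uptake into the cell and oxidation by HPGD end the signal. PTGS2, the inducible cyclooxygenase, is a well-known NF-κB target with an unstable mRNA, and in the liver the pathway is known for its part in inflammation and in HCC.

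Elements of the PTGS2 gene of the kinds through which it is known to be induced, and its mRNA to be short-lived, are shown first. They are printed 5′ to 3′ on the minus strand of chromosome 1, GRCh38, with the matched letters in capitals. The promoter windows come from RefSeq (250 bases before and 50 after a start site) and the last one from the 3′ UTR of the GENCODE v44 canonical transcript. The C/EBP motif lay at chr1:186680537-186680566, the reverse form of the cAMP response element core at chr1:186680464-186680493, the TATA box at chr1:186680438-186680467 and a run of overlapping ATTTA pentamers at chr1:186674323-186674352.
PTGS2 C/EBP motif: cccaccgggcTTACGCAATttttttaaggg
PTGS2 cAMP response element core: aaacagtcatttCGTCAcatgggcttggtt
PTGS2 TATA box: ggttttcagtctTATAAAaaggaaggttct
PTGS2 ATTTA run: aagtctaatgatcatATTTATTTATTTAta

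The motifs began 133, 58 and 32 bases before the start site. Searched on both strands of 35116 RefSeq promoters of the same length, the C/EBP motif TTNNGCAAT was in 2.31% of promoters, the cAMP response element core TGACG in 24.6% and TATAAA in 11.5%. An NF-κB motif, searched in a fixed form and found in 11.3% of promoters, had no match in these 300 bases of PTGS2. This says only that those letters are not in this window, and an NF-κB site with other letters would have been missed. All 10 genes had a promoter entry. Matches to the NF-κB motif were found for HPGD, PTGER4 and PTGER2, and the AP-1 motif TGANTCA, found in 7.71% of promoters, had none in any of the 10 genes. The EGR1 motif GCGNGGGCG, present in 9.43% of promoters, was matched for PTGES2, PTGR1, PTGER2 and PTGES. In PTGES it is shown because EGR1 is known to act there. The window lies at chr9:129753105-129753134 on the minus strand of GRCh38, and the match began 82 bases before the start site.
PTGES EGR1 motif: gtggggcgggGCGTGGGCGgtgctggctgc

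ATTTA pentamers, the letters that AU-binding proteins recognise in unstable mRNAs, were counted in each canonical 3′ UTR. PTGS2 held 22 of them, or 8.59 per kb. PLA2G4A held 4 in a much shorter UTR of 473 bases, or 8.46 per kb. Only 1.34% and 1.45% of tested genes were as dense as these, against a median of 1.72 per kb. PTGER4 followed with 6.63 per kb and PTGR1 with 5.42 per kb, while HPGD (2.81), PTGS1 (0.95) and PTGES (0.79) were lower and PTGES2 had 0.

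UBXN1 (chr11:62676498-62679117, minus strand) had 1788 and 1817 counts in shCon and 416 and 433 in shUBXN1, and 24.4% of its control level was left. The libraries held 23373700 to 27380508 counts, and 16863 genes passed a filter on low counts. Among the defining hepatocyte genes, 8 of 11 had at least 10 counts in every library. ALB, the albumin gene, had 479 and 403 counts in shCon and 104 and 112 in shUBXN1, and APOA2 stood at 0 or 1 in each. Changes were estimated with edgeR's quasi-likelihood test over all 16863 genes, and a gene was called at a Benjamini-Hochberg adjusted p under 0.05. Levels of different genes were compared in TPM, a level scaled to gene length and library size. The labels do not say whether replicates were separate cultures, so the tests measure the spread between these libraries, which may be technical.

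PGE2 synthesis and breakdown genes moved in unlike directions after UBXN1 knockdown. PTGES rose 3.03-fold. HPGD fell to 0.287 and PLA2G4A to 0.308 of the control level, and PTGES2 fell slightly, to 0.797 of it. PTGS2 stood at 0.309 of control, and PTGS1, PTGR1, PTGR2 and PTGER4 did not pass the test. Of the 9 genes other than PTGS2, 8 passed the filter on low counts, 1 was called higher and 3 lower. Among all tested genes, 28% were called higher and 28.2% lower (56.2% in either direction), so a call in itself was common. At a fold change of at least 2 with an unadjusted p under 0.05, the thresholds of the study, PTGES was called higher and HPGD and PLA2G4A lower. That rule called 11.8% of all tested genes higher and 6.09% lower (17.9% in either direction).

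PLA2G4A (chr1:186828949-186988981) encodes cytosolic phospholipase A2 alpha, which cuts arachidonic acid from membrane phospholipids. It had 198 and 152 counts in shCon and 51 and 52 in shUBXN1. In TPM these were 4.84 ± 0.57 (SD, n = 2) and 1.55 ± 0.00067 (SD, n = 2). Both shUBXN1 libraries lay well below both shCon libraries. This gave a log2 fold change of -1.70 with a standard error of 0.22 (adjusted p = 1.81e-05, edgeR). Among the listed genes whose symbols begin with PLA2, PLA2G4A made up 11.2% and 10.4% of the summed TPM in shCon and 2.49% and 2.61% in shUBXN1. That sum leaves out 2 other listed phospholipase genes, PLAAT3 and PNPLA8. In shCon and shUBXN1, PLAAT3 had a mean of 300 and 295 TPM and PNPLA8 of 29.5 and 55.7 TPM. The share of PLA2G4A would be smaller with them.

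PTGS2 (chr1:186671791-186680922) had 153 and 108 counts in shCon and 44 and 33 in shUBXN1. In TPM it stood at 2.20 ± 0.39 (SD, n = 2) and 0.710 ± 0.153 (SD, n = 2), so the gene was low in both groups. Its log2 fold change was -1.69, with a standard error of 0.27. With each library left out in turn it ran from -1.88 to -1.52. An antisense gene, PACERR, shares 3.99% of the PTGS2 exon bases and had a mean of 2 counts.

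PTGS1 (chr9:122370530-122395703), the constitutive cyclooxygenase, had 136 and 81 counts in shCon and 152 and 103 in shUBXN1. The groups overlapped, and within each group the libraries differed by more than the groups did. With a log2 fold change of 0.30 and a standard error of 0.25, it did not pass (adjusted p = 0.323, edgeR). Per length, PTGS2 made up 54.5% and 58.7% of the summed cyclooxygenase TPM in shCon and 23.6% and 25.5% in shUBXN1. The sum of the cyclooxygenase genes was 4.55 and 3.29 TPM in shCon and 3.47 and 2.37 TPM in shUBXN1, which overlap.

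PTGES (chr9:129738331-129753042) encodes the inducible microsomal PGE synthase, the enzyme that is usually coupled to PTGS2. It had 306 and 269 counts in shCon and 856 and 817 in shUBXN1. The TPM rose from 13.1 ± 0.30 (SD, n = 2) to 41.5 ± 1.92 (SD, n = 2). Libraries of a group were close to each other and the groups lay far apart. On the log2 scale the rise was 1.60 with a standard error of 0.10 (adjusted p = 1.22e-08, edgeR), and it ran from 1.58 to 1.60 with each library left out. It was 1.39 after removal of the GC trend, with the call kept.

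PTGES2 (chr9:128120693-128128462), a second membrane-associated PGE synthase, lies on the same chromosome. The shCon libraries had 2626 and 2486 counts and the shUBXN1 libraries 2001 and 1917, and the groups did not overlap. The fall was small, with -0.33 on the log2 scale (standard error 0.074, adjusted p = 0.00171, edgeR). Without the second shCon library it was -0.29 and no longer passed (adjusted p = 0.0741). With the GC trend removed PTGES2 stood at -0.59. Of the summed TPM of PTGES, PTGES2 and PTGES3, PTGES made up 1.77% and 1.71% in shCon and 7.02% and 6.17% in shUBXN1. PTGES3, which also serves as a chaperone cofactor, makes most of that sum. It was called lower, from 612 to 482 TPM (log2 fold change -0.40, adjusted p = 0.00164, edgeR). The sum of the PGE synthase genes was 753 and 755 TPM in shCon and 610 and 650 TPM in shUBXN1.

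HPGD (chr4:174490175-174523154) encodes the dehydrogenase that oxidises PGE2 as the first step of its inactivation. It had 3383 and 2661 counts in shCon and 905 and 759 in shUBXN1. The TPM fell from 92.0 ± 9.31 (SD, n = 2) to 27.6 ± 3.79 (SD, n = 2). Among the 9 genes with a fold change this was the lowest, at -1.80 on the log2 scale (standard error 0.088, adjusted p = 1.31e-09, edgeR). Leaving out each library gave -1.89 to -1.71. The ratio of PTGES to HPGD in TPM was 0.135 and 0.151 in shCon and 1.41 and 1.61 in shUBXN1, so the order of these genes was exchanged between the groups. An antisense gene covers 5.68% of the HPGD exon bases and had a mean of 3.09 counts.

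PTGR1 (chr9:111549722-111599893) encodes a reductase that acts on the keto products of HPGD and also inactivates leukotriene B4. It was by far the most abundant of the 10 genes, with 32505 and 29858 counts in shCon and 34353 and 33468 in shUBXN1. In TPM it stood at 1561 ± 12.9 (SD, n = 2) and 1841 ± 58.4 (SD, n = 2). The shUBXN1 libraries were higher, but a difference of 0.18 on the log2 scale with a standard error of 0.083 did not pass (adjusted p = 0.0831, edgeR). It did pass in 8 of 12 alternative analyses, where the adjusted p ran from 0.00175 to 0.0484.

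PTGR2 (chr14:73851831-73885726), a related reductase of keto prostaglandins, had 402 and 343 counts in shCon and 311 and 322 in shUBXN1. After scaling, the shUBXN1 libraries were lower by a log2 fold change of -0.17, with a standard error of 0.12 (adjusted p = 0.234, edgeR). A gene on the same strand covers 14.2% of its exon bases and an antisense gene 20.8%, so the value of PTGR2 is uncertain. These overlapping genes had means of 27.7 and 5.05 counts.

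PTGER4 (chr5:40679915-40693735), a PGE2 receptor coupled to cAMP, had 16 and 18 counts in shCon and 29 and 22 in shUBXN1. Both shUBXN1 values were higher, but at this depth the log2 fold change of 0.63 had a standard error of 0.45 (adjusted p = 0.255, edgeR). PTGER2 (chr14:52314305-52328598), the other PGE2 receptor that raises cAMP, had 13 and 0 counts in shCon and 1 and 1 in shUBXN1. It failed the filter on low counts and has no fold change here. The count of 0 allows up to 3 counts in that library. Its shCon libraries disagreed and lay on either side of the shUBXN1 libraries, so no difference between the groups can be read from these counts.

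In shCon the order of levels was PTGR1, PTGES2, HPGD, PTGES, PTGR2, PLA2G4A, PTGS2, PTGS1, PTGER4 and PTGER2. Neighbours whose library values overlapped were PTGS2 with PTGS1 and PTGER4 with PTGER2. In shUBXN1 the order was PTGR1, PTGES2, PTGES, HPGD, PTGR2, PTGS1, PLA2G4A, PTGS2, PTGER4 and PTGER2, and PTGS2 overlapped PTGER4. Among the 8 tested genes other than PTGS2, library-scaled counts did not overlap between the groups for 3 that were higher (PTGES, PTGR1, PTGER4) and 4 that were lower. Over all tested genes, 39.4% were higher and 38.6% lower without overlap.

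The wider eicosanoid genes were grouped in 7 lists written by hand, with 89 genes of which 60 were tested. Of these, 22 (36.7%) were called higher and 16 (26.7%) lower, against 28% and 28.2% of all tested genes. At a fold change of at least 2 these were 12 (20%) and 4 (6.67%), against 11.8% and 6.09%. The median log2 fold change was 0.14, against 0.016 over all tested genes.

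Among other enzymes that release arachidonic acid, 8 of 13 tested genes (61.5%) were called higher and 2 lower (15.4%), against 28% and 28.2% of all tested genes. Their median log2 fold change was 0.51. FAAH, which hydrolyses anandamide to arachidonic acid, rose from 0.445 to 2.92 TPM on average (log2 fold change 2.62, adjusted p = 7.37e-05, edgeR). PLA2G6, a calcium-independent phospholipase, rose from 3.04 to 9.90 TPM (1.64 on the log2 scale). PLA2G10, a secreted phospholipase, had 17 and 4 counts in shCon and 46.5 and 49.5 in shUBXN1. Its log2 fold change was 2.27, and 3.53 without the first and 1.64 without the second shCon library. PLA2G4B was at 1.37, and at 0.91 and 1.99 without the first and the second shCon library, and it shares 75.6% of its exon bases with the readthrough gene JMJD7-PLA2G4B, so its value is uncertain. The most abundant genes of the list were PLAAT3, at 300 and 295 TPM (log2 fold change -0.083, adjusted p = 0.343, edgeR), and MGLL, which rose from 56.0 to 103 TPM (0.82 on the log2 scale). PLAAT3 stood at 0.0029 under total count scaling.

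Among the other prostanoid synthases, 2 of 9 tested genes (22.2%) were called higher and 4 (44.4%) lower, against 28% and 28.2% of all tested genes. The prostacyclin synthase gene PTGIS rose from 2.62 to 6.58 TPM (log2 fold change 1.27) and GSTM2, a glutathione transferase, from 1.56 to 4.14 TPM (1.35). The most abundant, AKR1B1, a reductase with PGF synthase activity, fell from 2839 to 1698 TPM (-0.80). CBR1, which reduces PGE2 to PGF2α, fell by 0.48 on the log2 scale, with 18.9% of its exon bases shared with an antisense gene. That antisense gene had a mean of 2.86 counts. AKR1C3 fell by 0.32 on the log2 scale, but it and its near-identical neighbours AKR1C1 and AKR1C2 can divide reads, so all of them are uncertain. The AKR1C3 call was lost without the first (adjusted p = 0.0553, edgeR) and without the second shCon library (adjusted p = 0.0619, edgeR). AKR1C1 (-0.13, adjusted p = 0.248, edgeR) and AKR1C2 (-0.040, adjusted p = 0.691, edgeR) did not pass, and AKR1C2 was above 0 under total count scaling and in limma on log2(TPM + 1). Without the second shUBXN1 library AKR1C1 was called lower, at -0.20.

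Transport and other breakdown genes held the highest fold change of the 7 lists. SLCO2A1, the prostaglandin transporter that brings PGE2 into the cell for HPGD, rose from 0.150 and 0.331 TPM in shCon to 4.01 and 4.31 TPM in shUBXN1. SLCO2A1 thus changed by 4.06 on the log2 scale (standard error 0.32, adjusted p = 1.15e-07, edgeR), and by 3.56 and 4.72 without the first and the second shCon library. CYP4F3 and CYP4F12, hydroxylases that inactivate leukotrienes and prostaglandins, fell by 1.39 and 1.41 on the log2 scale. In all, 2 of 10 tested genes (20%) were called higher and 3 (30%) lower, near the 28% and 28.2% of all tested genes.

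Of 8 other prostanoid receptor genes only 3 passed the count filter. TBXA2R, the thromboxane receptor, rose from 0.946 to 2.32 TPM (log2 fold change 1.25, adjusted p = 0.0193, edgeR) but lost its call in 5 alternative analyses. PTGFRN, which binds the PGF receptor, fell by 0.34 on the log2 scale, with the call lost without the second shCon library and in limma on log2(TPM + 1).

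Genes of the leukotriene branch were called higher in 4 of 7 cases (57.1%) and lower in 1 (14.3%), against 28% and 28.2% of all tested genes. ALOX5, which starts leukotriene synthesis, fell from 13.6 to 7.87 TPM (log2 fold change -0.86), while LTA4H, which completes leukotriene B4, rose from 57.6 to 101 TPM (0.76). LTB4R, its receptor, rose by 0.92 and GGT5, which trims leukotriene C4, by 1.15 on the log2 scale. GGT1 was at 1.89 but shares 56.5% of its exon bases with another gene on the same strand, so it is uncertain. In the cytochrome and epoxide branch CYP2U1 rose from 1.39 and 1.20 TPM to 2.90 and 2.52 TPM, EPHX1 had a log2 fold change of -0.22 (adjusted p = 0.0493, edgeR) and EPHX2 at -0.57 (adjusted p = 0.0601, edgeR). The EPHX1 call was lost in 6 alternative analyses, and EPHX2 was called lower only after removal of the GC trend (-0.72, adjusted p = 0.0203, edgeR).

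Supply of arachidonic acid was divided, with 4 of 12 tested genes (33.3%) called higher and 4 (33.3%) lower. These shares are near the 28% and 28.2% of all tested genes. The acyl-CoA synthetase genes ACSL1 (57.5 to 25.4 TPM, log2 fold change -1.24) and ACSL5 (33.4 to 16.8 TPM, -1.05) fell. MBOAT7, which places arachidonic acid in phosphatidylinositol, rose from 127 to 222 TPM (0.75). AGPAT3 fell by 0.56 and the desaturase gene FADS2 rose by 0.32 on the log2 scale, and FADS2 lost its call in 3 alternative analyses, with 0.068 after removal of the GC trend.

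Downstream of the PGE2 receptors that raise cAMP, 6 of 18 tested genes of the cAMP arm (33.3%) were called higher and 5 (27.8%) lower. These shares are close to the 28% and 28.2% over all tested genes. PDE4B, which degrades cAMP, fell from 2.04 to 0.173 TPM (log2 fold change -3.61, adjusted p = 1.07e-06, edgeR). The adenylyl cyclase genes ADCY6 and ADCY7 fell by 0.83 and 0.65, where 41.8% of the ADCY7 exon bases are shared with the antisense gene BRD7. GNAS, the stimulatory G protein, rose by 0.60, PRKACA by 0.79 and PRKAR1A by 0.53 on the log2 scale.

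Factors known to act on PTGS2 transcription or its mRNA were called lower in 12 of 25 tested cases (48%) and higher in 6 (24%), against 28.2% and 28% of all tested genes. Their median log2 fold change was -0.21. The list does not separate factors that raise PTGS2 from those that lower it, so these counts give no direction for PTGS2. EGR1, a zinc-finger factor whose motif is printed above for PTGES, fell from 24.2 and 30.7 TPM in shCon to 3.43 and 4.19 TPM in shUBXN1. On the log2 scale EGR1 stood at -2.90 with a standard error of 0.15 (adjusted p = 2.49e-09, edgeR). FOS of the AP-1 complex fell by 1.67, and HNRNPD, which binds AU-rich mRNA, fell by 0.83 on the log2 scale. CEBPD, a C/EBP factor, rose by 1.04, or by 0.61 after removal of the GC trend. RBM3 fell by 0.47 and USF2 by 0.23, and USF2 lost its call in 3 alternative analyses and was at -0.49 after removal of the GC trend.

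Against other NF-κB targets, which gave the reason for choosing PTGS2, 34 of 42 listed genes were tested. Of these, 23 (67.6%) were called higher and 3 (8.82%) lower, against 28% and 28.2% of all tested genes, and the median log2 fold change was 0.63. VCAM1 (3.12), CXCL2 (2.01) and BIRC3 (1.89) had the largest called rises at a mean of over 1 CPM. The called falls were NFKBIZ (-1.20), TNIP2 (-1.12) and CSF1 (-0.29). The fall of CSF1 was not called without the first shCon library and was -0.55 after removal of the GC trend. PTGS2 lay 0.49 below the next gene, NFKBIZ, as the choice of the gene requires.

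**Figure D1:**
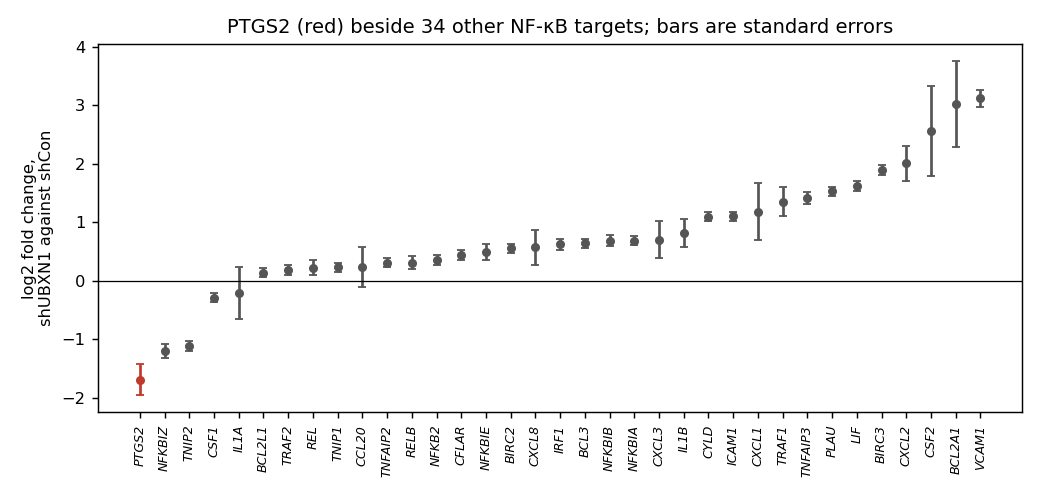
Log2 fold change, shUBXN1 against shCon, of PTGS2 (red, chosen for its place) and 34 other tested NF-κB targets, with standard errors. PTGS2 is at -1.69, 30 of the other genes are above 0, and NFKBIZ and TNIP2 are the nearest to PTGS2.

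The genes whose pattern over the 4 libraries was most like that of PTGS2, among 2563 genes within 1 log2 CPM of its level, were SAMD11, GCKR, DNAJC12, LPAR6 and ALDH1L2. Likeness was the Euclidean distance between centred log2 CPM values, from 0.083 for SAMD11 to 0.27 for ALDH1L2. Their log2 fold changes ran from -1.74 to -1.53, and none of them belongs to the lists above.

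Several library-wide measures moved with the groups. The share of mitochondrial counts was 5.28% and 5.59% in the shCon libraries and 7.43% and 8.27% in the shUBXN1 libraries. Of 11 hepatocyte markers 10 were tested, and 6 (60%) were called lower and 2 (20%) higher, against 28.2% and 28% of all tested genes. Their summed TPM was 5385 to 5433 in shCon and 4619 to 5034 in shUBXN1, mostly from KRT8 and KRT18. The summed TPM of 5 fibroblast markers was 24.5 to 25.1 in shCon and 12.6 to 13.6 in shUBXN1. That sum was mostly LUM (24.0 and 11.9 TPM on average), which was called lower together with DCN. COL1A1 was called higher, from 10 and 4 counts to 58 and 59. For 5 endothelial markers it was 15.2 to 15.3 and 32.0 to 32.3. Of 7 leukocyte and macrophage markers, whose sum of 100.02 to 105 and 84.2 to 94.1 TPM was mostly CD68, CD3E was at 0 in every library and CSF1R at 0 or 1. All of these libraries are labelled as the same cell line, so the marker values are given as levels of genes and not as shares of cell types. The part of these measures in the changes of PTGES, HPGD and PLA2G4A was not tested.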

How the data were processed

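RNA from 2 shCon and 2 shUBXN1 libraries of MHCC97H cells was compared. By the study's methods, the authors aligned paired reads to GRCh38 with Hisat2, whereas the submitters' processing notes name GRCh37, HISAT2 2.0.4 and StringTie 1.3.0. The deposited values are expected counts per gene, without normalization, with a gene length. The counting tool, annotation release and use of strand are not given in the sources used here. The labels name another library kit than the methods. The table has no coordinates, so positions are those of GENCODE v44 on GRCh38, and 99.7% of gene IDs matched.

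Counts were rounded to whole numbers, filtered (filterByExpr), scaled (TMM) and fitted with edgeR 4.0.16 in R 4.3.3 without a block, with Benjamini-Hochberg adjustment over 16863 genes. Standard errors were obtained by dividing each log2 fold change by the root of its F statistic. TPM was computed from the counts and gene lengths. With 2 libraries per group, 2 residual degrees of freedom and a biological coefficient of variation of 0.0711 set the precision. Replicates differed by more than counting noise (chi-square per degree of freedom, 3.79 for shCon and 8.37 for shUBXN1). The fitting steps were also run on simulated counts in which few genes changed. That run does not cover changes as wide as those in these libraries.

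All 10 genes were named. From each other list, up to 4 called genes with the largest change at a mean log2 CPM above 0 and the 2 with the highest TPM were named, and from the NF-κB targets up to 3 rises and 3 falls. A gene that this rule names is not reported here. The members and lists were chosen with earlier results of these data known. Alternatives were DESeq2 1.42.0, total count scaling, limma-voom and limma 3.58.1 on log2(TPM + 1), no filter, at least 10 counts in every library, a replicate block and leaving out each library. Removal of a loess trend on GC content was chosen after seeing the data.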

Additional observations from a re-analysis of the deposited data

How the results depend on the processing

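Over 12 alternatives, the prostaglandin genes that passed the filter kept their direction in every case, and 87 values of the 8 tested genes other than PTGS2 kept their side of the threshold, with 1 call lost and 8 gained. PTGES2 lost its call without the second shCon library (-0.29). The number of genes called higher was 2 in place of 1, with PTGR1 added, under total count scaling, no filter, at least 10 counts, DESeq2, limma-voom and limma on log2(TPM + 1), and 1 to 2 with each library left out. PTGER2 could be fitted only without a filter (-2.45), with DESeq2 (-2.58) and without the second shCon library (-3.42, adjusted p = 0.0481, edgeR), where it rests on 13 counts against 1 and 1. PTGS2 was at -0.90 on log2(TPM + 1), where the added 1 shrinks the change of low genes. With each library left out PTGS1 ran from 0.032 to 0.62.

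In the wider eicosanoid lists, 7 genes were higher at a fold change of at least 2 in limma on log2(TPM + 1), and 7 were lower after removal of the GC trend. Over all genes, 1321 were higher at that fold with at least 10 counts, and limma on log2(TPM + 1) gave 1028 higher and 524 lower. Removal of the GC trend gave 1703 higher and 1374 lower over all genes, where the main fit gave 1997 and 1027. AKR1C2 turned to 0.045 under total count scaling and 0.019 in limma on log2(TPM + 1), and PLAAT3 to 0.0029 under total count scaling. Total count scaling moved the median of all genes from 0.016 to 0.10. Of 50 named genes that are not members, 39 kept direction and call throughout. The cause of these shifts was not tested.

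Replicate numbers did not pair the samples (correlation of deviations 0.039). A replicate block left 1 prostaglandin gene called higher and 3 lower, with PTGS2 at -1.69, and called 23 wider eicosanoid genes higher and 18 lower. Over all 16863 genes the block called 5000 higher and 5023 lower, against 4727 and 4751 in the main fit. With 2 libraries per group, PTGER4 is limited by its low counts, and PTGER2 by its low counts and the disagreement of its shCon libraries.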

Other observations

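PTGS2 and PLA2G4A lie next to each other on chromosome 1, 148 kb apart, with no gene of the table between them. This was noticed after their values and positions were seen. Within 1 Mb, 4 other genes were tested, of which 3 were called lower and 0 higher in shUBXN1, where 28.2% of all tested genes were called lower and 28% higher. HMCN1, an extracellular matrix gene, had 109 and 132 counts in shCon and 37 and 18 in shUBXN1 (log2 fold change -2.09, adjusted p = 0.0001, edgeR). The long noncoding gene LINC01036 had 40 and 43 counts in shCon and 11 and 5 in shUBXN1 (-2.31, adjusted p = 0.00122, edgeR). ODR4 was at -0.23 (adjusted p = 0.0354, edgeR) and TPR, a nuclear pore gene, at 0.13 (adjusted p = 0.155, edgeR).

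Of 12961 tested genes with a 3′ UTR of at least 100 bases, 188 had an ATTTA density at least that of PLA2G4A, with PLA2G4A and PTGS2 among them. Of the 188, 35 (18.6%) were called higher and 77 (41%) lower, with a median log2 fold change of -0.088. Over all 12961 genes, 29.6% were called higher and 32.4% lower, with a median of -0.017. The density was chosen after the values were seen, and no test of the difference was made.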
